A study of Mus musculus with 4 samples.

Results

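Thick filament and M-band genes were chosen by name: Mybpc1, Mybpc2, Myom1, Myom2 and Myom3. Of these 5 genes, 4 were among the 1000 genes of the count table, and Myom1, the myomesin found in all striated muscle, was not analysed here. The counts came from tibialis anterior, a leg muscle, of Dmd Dup2 mice, a model in which exon 2 of the dystrophin gene is duplicated. One group was untreated. Mice of the other were given scAAV9.U7-ACCA, an AAV9 vector with a self-complementary genome whose U7 RNA is meant to make splicing skip an exon, so the duplication was common to both groups. Each group gave 1 mRNA library and 1 library of ribosome footprints, the mRNA fragments that ribosomes cover. The labels do not give the number of animals behind a library, their age or sex, or the dose and time of treatment. With 1 library per group there was no replicate check and no test between conditions, and every interval below is a 95% interval for counting error only.

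The thick filament is a bundle of myosin molecules. Myosin-binding protein C forms transverse stripes along it and binds both myosin and actin, which tunes how readily cross-bridges form. Mybpc1 encodes the isoform named slow, although fast fibres also make it, and Mybpc2 encodes the fast isoform. The M-band lies at the middle of the sarcomere, where members of the myomesin family link neighbouring thick filaments and anchor titin. Myom2 encodes M-protein, typical of fast fibres, and Myom3 encodes myomesin-3, found in a subset of fibres of intermediate type.

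The promoters of Mybpc1 and Myom3, the pair whose mRNA and footprints were both lower in the treated libraries, are shown with that of Mybpc2, whose mRNA and footprints differed in opposite directions. Each is the 250 bases before the RefSeq start site, in the direction of the gene, from RefSeq on build GRCm38.p6. Capitals mark matches, on either strand, to the E-box CANNTG bound by myogenic factors, to the MEF2 consensus, to the CArG box bound by serum response factor, or to TATAAA.
Mybpc1, chr10:88605153-88605402, minus strand: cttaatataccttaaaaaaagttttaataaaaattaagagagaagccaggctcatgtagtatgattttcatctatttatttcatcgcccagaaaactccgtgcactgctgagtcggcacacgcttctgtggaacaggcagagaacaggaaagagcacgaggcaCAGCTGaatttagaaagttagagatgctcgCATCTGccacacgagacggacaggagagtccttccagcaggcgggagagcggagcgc
Mybpc2, chr7:44524670-44524919, minus strand: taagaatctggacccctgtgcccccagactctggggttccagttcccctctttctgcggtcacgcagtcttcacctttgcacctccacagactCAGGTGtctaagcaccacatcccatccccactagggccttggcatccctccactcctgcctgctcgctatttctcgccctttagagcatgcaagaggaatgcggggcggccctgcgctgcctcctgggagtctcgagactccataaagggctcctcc
Myom3, chr4:135759465-135759714, plus strand: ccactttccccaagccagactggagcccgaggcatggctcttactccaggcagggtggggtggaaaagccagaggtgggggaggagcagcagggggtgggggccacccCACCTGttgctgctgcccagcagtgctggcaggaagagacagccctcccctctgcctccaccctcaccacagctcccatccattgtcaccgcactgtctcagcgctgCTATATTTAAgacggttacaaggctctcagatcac
Mybpc1 held 2 E-boxes, Mybpc2 held 1, and Myom3 held 1 E-box and 1 MEF2 match, 35 to 26 bases before the start. No CArG box or TATAAA was found in these 3 windows. Over all 32851 promoter windows of the same length, 66.2% held an E-box, 2.92% a MEF2 match, 1.47% a CArG box and 12.4% TATAAA, so the E-box matches are common ones. No match shown overlapped a match to another motif. The matches describe letters and do not show that a factor was bound.

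The libraries differed in depth. The listed genes held 125236 reads in untreated mRNA, 4248818 in treated mRNA, 3349015 in untreated footprints and 1664122 in treated footprints. Of these, the 4 genes together took 1.78% of untreated mRNA, 1.12% of treated mRNA, 1.12% of untreated footprints and 0.763% of treated footprints. With TMM scaling, described below, Dmd, the gene the vector acts on, was 3.63-fold higher (2.45 to 5.63) in treated mRNA and 4.74-fold higher (3.62 to 6.24) in treated footprints. The untreated values of Dmd rest on only 25 mRNA reads and 80 footprints. Muscle fibre markers held 12.3% to 14.2% of listed reads in the 4 libraries. Fibroblast markers, with 5 of 6 fixed genes listed, held 2.05% of mRNA reads in untreated and 0.257% in treated muscle, and 2.41% and 0.497% of the footprints. These sums hide a split. With the scaling and calls described below, 3 of the 5 were lower and 1 higher in mRNA, and 4 lower and 0 higher in footprints. Macrophage markers, with 4 of 7 listed, held 0.125% of mRNA reads in untreated and 0.0165% in treated muscle, and 0.125% and 0.0556% of the footprints. Of the endothelial markers, 0 of 3 were listed. The part of these markers in the results below was not tested, and in whole muscle fewer cells of a type cannot be told apart from less RNA per cell.

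Ratios of treated to untreated are of reads scaled by TMM, which assumes that most listed genes do not differ. A call of higher or lower needed a ratio of 1.5-fold or more, an interval without 1, and 50 or more reads in the pair of libraries. Translation efficiency is taken as the ratio in footprints over the ratio in mRNA. In mRNA, 1 of the 4 genes was called higher and 2 lower, where 31.8% and 24.8% of the 996 genes compared were called higher and lower. In footprints 1 was higher and 3 lower, where 19.9% and 26.2% of 999 genes were called higher and lower. In translation efficiency 1 was higher and 1 lower, against 26.0% and 31.9% of 995 genes. The median log2 ratio of the 4 genes was −0.65 in mRNA, beside 0.06 for all genes compared, −1.09 in footprints, beside −0.02, and 0.12 in translation efficiency, beside −0.11. Calls were thus frequent over the whole table, and the 4 genes did not move as a block.

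**Figure D1:**
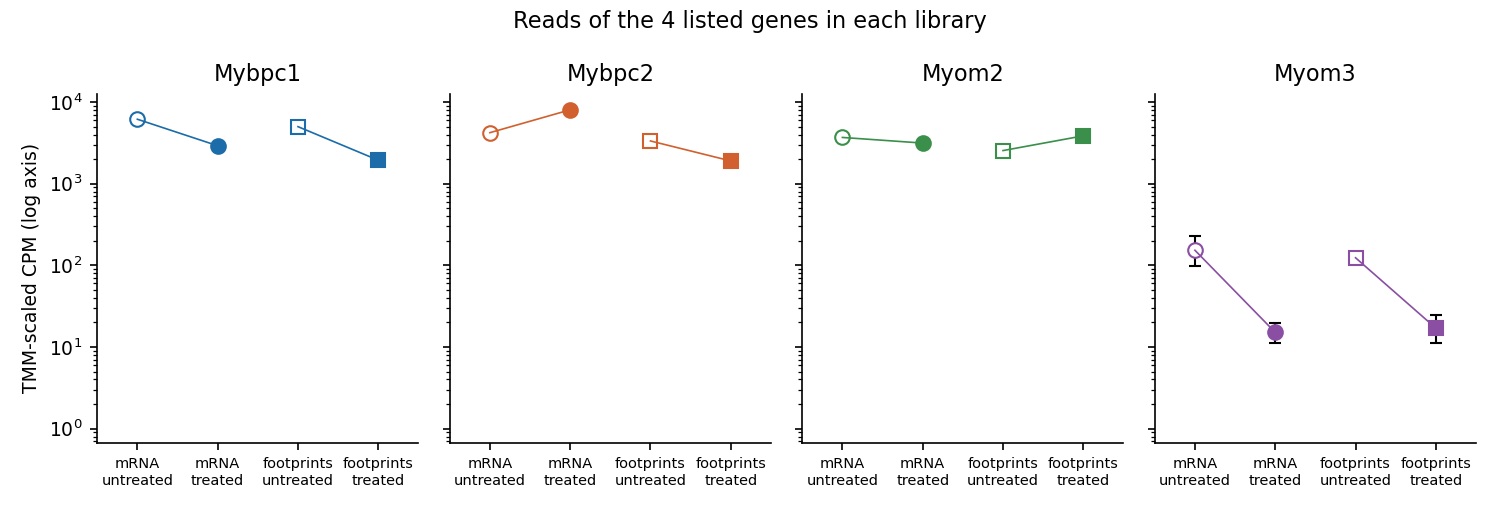
TMM-scaled CPM (log axis) of Mybpc1, Mybpc2, Myom2 and Myom3 in the 4 libraries; circles are mRNA, squares footprints, open symbols untreated and filled symbols treated, with exact 95% Poisson intervals. Both lines slope down for Mybpc1 and Myom3, while those of Mybpc2 and Myom2 cross in direction between mRNA and footprints.

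Mybpc1 (NM_175418), the slow myosin-binding protein C, was lower in both assays of treated muscle. It had 966 reads in untreated mRNA, 9857 in treated mRNA, 17031 in untreated footprints and 3193 in treated footprints. Scaled with TMM to CPM these were 6165, 2918, 5001 and 1941 in the same order, so each treated value was under its untreated partner. The mRNA was 2.11-fold lower (1.98 to 2.26) and the footprints 2.58-fold lower (2.48 to 2.68). It was the 71st lowest of 999 genes in footprints and the 160th lowest of 996 in mRNA. Its translation efficiency ratio of 0.820 (0.760 to 0.885) was not called, and its direction turned with scaling, to 1.26 (1.16 to 1.35) with listed totals and 1.25 (1.16 to 1.35) with the authors' constants.

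Mybpc2 (NM_146189), the fast myosin-binding protein C, had more mRNA and fewer footprints in treated muscle. It had 661 reads in untreated mRNA, 27171 in treated mRNA, 11375 in untreated footprints and 3128 in treated footprints. The scaled values were 4219, 8044, 3340 and 1901 CPM. Its mRNA was thus 1.91-fold higher (1.77 to 2.06), whereas its footprints were 1.76-fold lower (1.69 to 1.83). Translation efficiency was 3.35-fold lower (3.07 to 3.65), the 85th lowest of 995 genes. The mRNA ratio stayed above 1 under all 6 scalings tried, but its log2 value went from 0.93 to 0.05 with the authors' library constants, to 0.28 with listed totals and to 0.53 with the upper quartile, and in those 3 it was not called. The lower footprints and the lower translation efficiency were called under each of the 6 scalings, with log2 values of −1.08 to −0.74 and −1.74 to −1.13. At a 2-fold threshold neither the mRNA nor the footprints of Mybpc2 were called, while its translation efficiency was.

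Myom2 (NM_008664), which encodes M-protein, differed the other way round. It had 578 reads in untreated mRNA, 10629 in treated mRNA, 8676 in untreated footprints and 6348 in treated footprints. The scaled values were 3689, 3147, 2547 and 3859 CPM. Footprints were 1.51-fold higher (1.47 to 1.56) in treated muscle, just past the fold threshold, while the mRNA ratio of 0.853 (0.784 to 0.929) was not called. Translation efficiency was 1.78-fold higher (1.62 to 1.94). The mRNA log2 value of −0.23 with TMM was −0.88 by listed totals, −0.63 by upper quartile and −1.11 by the authors' constants, and in those 3 it was called lower. In the same 3 the footprint value, 0.60 with TMM, was 0.56, 0.48 and 0.33 and was not called. The higher translation efficiency was called under all 6 scalings, with log2 values of 0.83 to 1.44.

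Myom3 (NM_001085509), which encodes myomesin-3, had the largest differences and the fewest reads of the 4 genes. It had 24 reads in untreated mRNA, 51 in treated mRNA, 422 in untreated footprints and 28 in treated footprints. The scaled values were 153, 15.1, 124 and 17.0 CPM, with wide intervals of 98.1 to 228 in untreated mRNA and 11.3 to 24.6 in treated footprints. The intervals of treated and untreated did not overlap in either assay. Its mRNA was 10.1-fold lower (5.97 to 16.8) and its footprints 7.28-fold lower (4.96 to 11.1), the 7th lowest of 999 genes in footprints. The table lists genes by their reads in untreated mRNA, with at least 14 and a median of 25 per gene. Myom3 entered with 24, so the listing itself favoured a low treated to untreated mRNA ratio for this gene. The same holds for other genes with few such reads. For translation efficiency the ratio of Myom3 was 1.43 (0.776 to 2.64), with 1 inside the interval. As it is divided by the mRNA ratio, the listing favoured a high value of it.

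**Figure D2:**
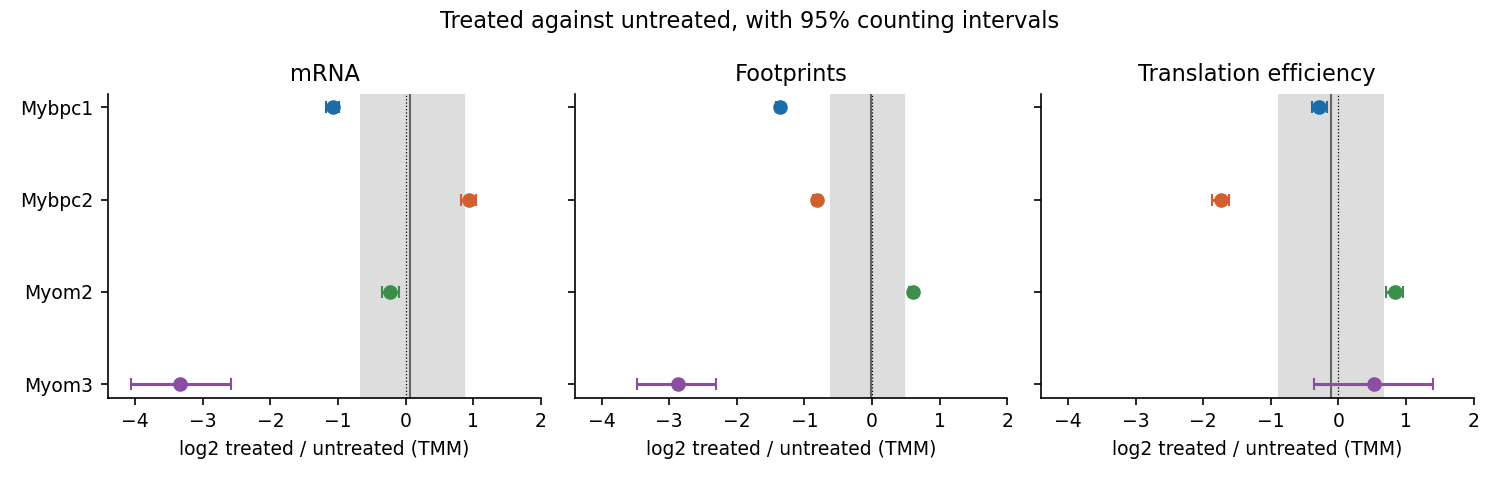
log2 ratio of treated to untreated for each gene in mRNA, footprints and translation efficiency (x axis, TMM scaling), with 95% counting intervals. The grey band and line are the middle 50% and the median of all listed genes compared, and the dotted line is no difference; Myom3 lies far below the band in mRNA and footprints, and Mybpc2 changes side between them.

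Because scaling moves all mRNA ratios together, the genes were also set against the median gene. The median mRNA log2 ratio of 0.06 became −0.60 with listed totals and −0.82 with the authors' constants. Relative to the median gene with TMM, Mybpc1 lay at −1.14, Mybpc2 at 0.87, Myom2 at −0.29 and Myom3 at −3.40 in mRNA log2 ratio. In footprint log2 ratio Mybpc1 lay at −1.34, Mybpc2 at −0.79, Myom2 at 0.62 and Myom3 at −2.84 from the median gene. The lower mRNA and footprints of Mybpc1 and Myom3 were called under all 6 scalings, and with the authors' constants their mRNA log2 values went from −1.08 to −1.96 and from −3.34 to −4.22.

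**Figure D3:**
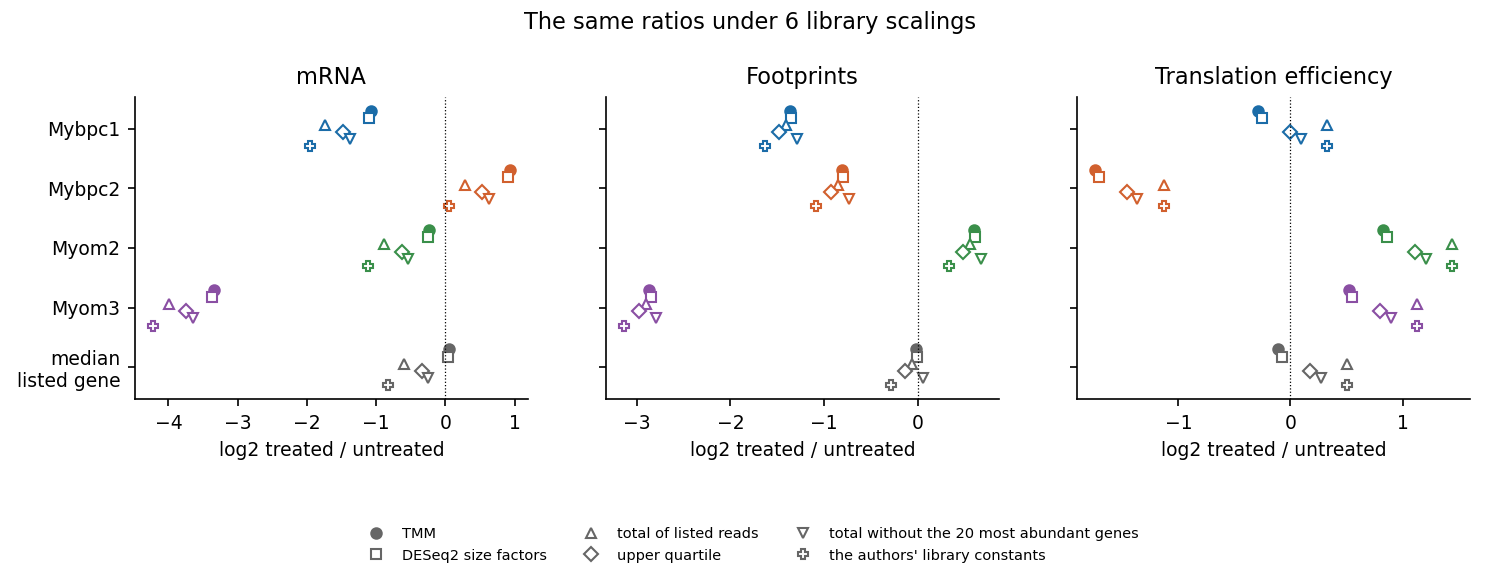
log2 ratio of treated to untreated (x axis) for the 4 genes and the median listed gene under 6 library scalings, TMM filled and the other 5 open. The scalings shift the genes together, most in mRNA, and leave their order unchanged.

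A ratio between a pair of genes within one library does not depend on scaling. A gene's own length cancels when that ratio is compared between libraries that cover long and short mRNAs alike, which was not tested. All 6 pairs were compared. For every 100 Mybpc2 reads there were 146 Mybpc1 reads in untreated mRNA and 36.3 in treated mRNA, a 4.03-fold lower ratio (3.64 to 4.47) of slow to fast isoform. In footprints there were 149.7 and 102.1 Mybpc1 reads per 100 of Mybpc2, a 1.47-fold lower ratio (1.39 to 1.55). The slow isoform was therefore lower relative to the fast one in both assays, by less in footprints.

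Myom2 and Mybpc2, a pair of genes typical of fast fibres, differed from each other in opposite directions in the assays. For every 100 Mybpc2 reads, Myom2 had 87.4 in untreated mRNA and 39.1 in treated mRNA, 2.24-fold lower (1.99 to 2.51). In footprints it had 76.3 untreated and 203 treated, 2.66-fold higher (2.53 to 2.80). Divided by each other, these gave a footprint per mRNA ratio of Myom2 relative to Mybpc2 that was 5.95-fold higher (5.25 to 6.74) in treated muscle.

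Within the myomesin family, Myom3 was lower relative to Myom2 in both assays. Per 100 Myom2 reads in mRNA there were 4.15 Myom3 reads untreated and 0.480 treated, 8.65-fold lower (5.05 to 14.4). In footprints there were 4.86 untreated and 0.441 treated, 11.0-fold lower (7.51 to 16.8). The other 3 pairs were added after the values were seen. Myom2 was 1.80-fold higher (1.62 to 2.01) relative to Mybpc1 in mRNA and 3.90-fold higher (3.71 to 4.10) in footprints. Myom3 was lower relative to Mybpc1, by 4.80-fold (2.81 to 7.98) in mRNA and 2.83-fold (1.92 to 4.31) in footprints. Relative to Mybpc2 it was 19.3-fold lower (11.3 to 32.2) in mRNA and 4.14-fold lower (2.82 to 6.33) in footprints. In mRNA the listing favoured low values of Myom3 in each of its pairs too.

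**Figure D4:**
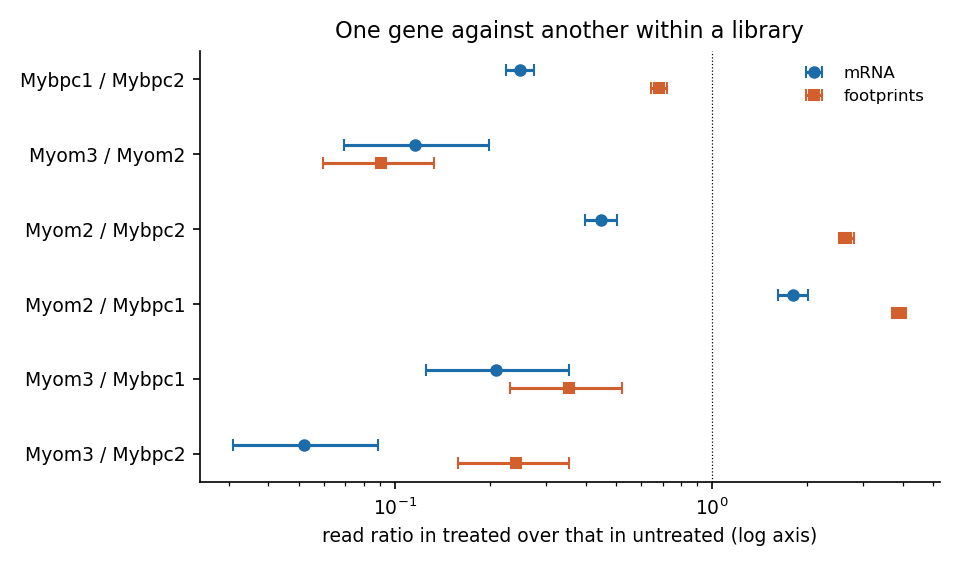
Read ratio of one gene to another in treated over the same ratio in untreated (x axis, log scale), for 6 pairs in mRNA (circles) and footprints (squares), with exact 95% counting intervals. Myom2 to Mybpc2 lies below 1 in mRNA, at 0.447, and above 1 in footprints, at 2.66.

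As a share of the reads of the 4 genes, Mybpc2 went from 29.7% of untreated to 57.0% of treated mRNA reads, while Mybpc1 went from 43.3% to 20.7%. In footprints Myom2 went from 23.1% of untreated to 49.996% of treated reads. Mybpc1 and Mybpc2 then had nearly equal footprint shares of 25.1% and 24.6% in treated muscle.

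Footprints per mRNA read show how densely ribosomes sat on each mRNA, set here against the median of the 1000 listed genes in the same condition. In untreated muscle the 4 genes lay close together, at 0.811 (0.760 to 0.865) of the median gene for Mybpc1, 0.791 (0.732 to 0.856) for Mybpc2, 0.690 (0.634 to 0.751) for Myom2 and 0.793 (0.528 to 1.19) for Myom3. The intervals of Mybpc1 and Mybpc2 overlapped. In treated muscle they were spread out, at 0.671 (0.645 to 0.699) for Mybpc1, 0.239 (0.230 to 0.248) for Mybpc2, 1.24 (1.20 to 1.28) for Myom2 and 1.15 (0.726 to 1.81) for Myom3. Mybpc2 was then 79th lowest of 1000 genes, from 345th lowest in untreated muscle. Untranslated regions add mRNA reads and no coding footprints, so levels of this ratio between genes are less secure than the difference within a gene.

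Other genes of the same structures were taken from fixed lists, with up to 4 genes of each, those with the most reads, named here. Calls are those with TMM, and as mRNA ratios shift with scaling, the count with the authors' constants, the lowest of the 6 scalings, stands beside them. Over all genes compared, those constants called 110 higher and 543 lower of 996 in mRNA. In footprints they called 114 higher and 365 lower of 999, so many lower calls in a list are common with them. Of 16 other thick filament genes, 11 were listed. In mRNA 4 were called higher and 0 lower, but 3 higher and 7 lower with the authors' constants, and in footprints 2 were higher and 1 lower. Relative to the median gene the middle of the list lay at −0.07 log2 units for mRNA and −0.03 for footprints. Myh4, the myosin heavy chain of the fastest fibres, was 1.53-fold higher (1.498 to 1.55) in mRNA with TMM, a log2 ratio of 0.61 that became −0.27 with the authors' constants, and its footprint ratio was 1.18 (1.17 to 1.19). The mRNA ratios of Myh1, Myh2 and Myh8, further myosin heavy chains, were 0.694 (0.680 to 0.709), 0.989 (0.962 to 1.02) and 0.869 (0.844 to 0.894), and none was called with TMM, while all 3 were called lower with the authors' constants. Myosin heavy chain genes are near-identical in places and the sources used here do not say how shared reads were counted.

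Among 17 genes of titin and other M-band or M-band associated proteins, 12 were listed, with 8 higher and 2 lower in mRNA and 8 higher and 1 lower in footprints. With the authors' constants 3 were higher and 3 lower in mRNA, and 6 higher and 1 lower in footprints. The middle of the list lay 0.94 log2 units above the median gene for mRNA and 0.84 for footprints. Ttn, the titin gene whose product spans from Z-disc to M-band, was 4.82-fold higher (4.73 to 4.91) in mRNA and 2.62-fold higher (2.59 to 2.64) in footprints. Ckm, the muscle creatine kinase that binds the M-band, was 1.91-fold higher (1.82 to 1.9997) in mRNA, called under 3 of the 6 scalings and of log2 0.05 with the authors' constants, with a footprint ratio of 0.849 (0.835 to 0.863). Cmya5, a large protein of the sarcomere edge, was 5.37-fold higher (4.86 to 5.94) in mRNA and 1.82-fold higher (1.75 to 1.89) in footprints. With TMM, Mybpc1 and Myom3, both lower, thus stood opposite to most of the listed M-band genes in mRNA and footprints. Like Mybpc2, Cmya5 had a translation efficiency called lower under all 6 scalings, 2.95-fold lower (2.65 to 3.28) with TMM. That of Ckm was 2.25-fold lower (2.14 to 2.36) and that of Ttn 1.84-fold lower (1.80 to 1.88) with TMM, but neither was called with the authors' constants, at log2 values of −0.56 and −0.27.

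Of 8 factors that assist thick filament assembly or protect the sarcomere, 7 were listed, with 3 higher and 2 lower in mRNA, but 0 higher and 4 lower with the authors' constants, and 4 higher and 1 lower in footprints, or 2 and 1 with those constants. The middle of this list lay 0.13 log2 units above the median gene for mRNA and 0.63 for footprints. Unc45b, a myosin chaperone, had an mRNA ratio of 1.14 (0.876 to 1.52), of log2 −0.69 with the authors' constants, and 1.53-fold higher footprints (1.42 to 1.65), called under 3 of the 6 scalings. Hspb1, a small heat shock protein, was 1.98-fold higher (1.40 to 2.91) in mRNA, called under 4 of the 6 scalings, and 5.41-fold higher (5.03 to 5.82) in footprints. Hsp90ab1, a partner of myosin chaperones, had 1.503-fold lower footprints (1.42 to 1.59), called under 4 of the 6 scalings. Its mRNA ratio of 0.738 (0.653 to 0.838) was not called with TMM, but was called lower with the authors' constants. Cryab, the small heat shock protein alpha-B crystallin, was 1.73-fold lower (1.31 to 2.25) in mRNA, with only 60 untreated mRNA reads. Its footprint ratio of 0.886 (0.821 to 0.956) was not called, and its translation efficiency was 1.55-fold higher (1.18 to 2.03).

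Fibre type lists gave a mixed picture beside Mybpc1 and Mybpc2. Of 11 fast fibre genes 10 were listed, with 3 higher and 0 lower in mRNA, but 0 higher and 5 lower with the authors' constants, and 2 higher and 2 lower in footprints, or 2 and 4 with those constants. The middle of the fast list lay near the median gene, at 0.09 log2 units from it for mRNA and −0.11 for footprints. Atp2a1, the calcium pump of fast fibres, was 2.11-fold higher (2.04 to 2.18) in mRNA, called under 4 of the 6 scalings, with a footprint ratio of 1.24 (1.23 to 1.25), and Tnni2, fast troponin I, had 1.86-fold higher footprints (1.84 to 1.89). The mRNA ratio of Tnni2, 1.24 (1.16 to 1.32), was not called. Of 12 slow fibre genes 5 were listed, and 4 reached the minimum in mRNA, with 1 higher and 3 lower. In footprints 2 of 5 were lower and 0 higher. These counts were the same under all 6 scalings. Tnnt1, slow troponin T, was 42.0-fold lower (23.5 to 77.3) in mRNA and 14.3-fold lower (9.25 to 23.2) in footprints, and Casq2, the slow-fibre calsequestrin, 22.0-fold (16.5 to 29.2) and 2.13-fold lower (1.97 to 2.32). Myh7, the slow myosin heavy chain, was 4.07-fold higher (3.36 to 4.98) in mRNA, with a footprint ratio of 0.911 (0.891 to 0.931). In mRNA the slow fibre tropomyosin Tpm3 fell 4.76-fold (interval 2.74 to 7.90), with a footprint ratio of 0.857 (0.752 to 0.976) that was not called. Tnnt1 had only 37 untreated and 19 treated mRNA reads and 21 treated footprints, and Tpm3 only 19 untreated mRNA reads. As for Myom3, the listing favoured low mRNA ratios for such genes. Relative to the median gene the middle of the slow list lay at −3.41 log2 units for mRNA and −0.26 for footprints. In mRNA most of the slow fibre genes compared were thus lower, as Mybpc1 and Myom3 were. They were split in footprints, where 3 of 5 were not called and Mybpc1 and Myom3 were lower.

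Of 8 immature and regenerating fibre genes 4 were listed, with 2 lower and 0 higher in mRNA, or 4 lower with the authors' constants, and 2 lower and 0 higher in footprints. Relative to the median gene the middle of this list lay at −1.48 log2 units for mRNA and −0.57 for footprints. Actc1, cardiac alpha-actin, was 6.23-fold lower (5.80 to 6.68) in mRNA and 4.64-fold lower (4.49 to 4.80) in footprints, and Myl4, a myosin light chain of embryonic and atrial muscle, was 11.7-fold lower (7.36 to 18.3) in mRNA and 2.17-fold lower (2.003 to 2.36) in footprints. Myl4 had only 32 untreated mRNA reads, so the listing favoured a low mRNA ratio for it too. The mRNA ratio of Myh3, the embryonic myosin heavy chain, was 1.11 (1.05 to 1.17), of log2 −0.73 with the authors' constants. The part of immature fibres in the values of Mybpc1 and Myom3 was not tested.

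**Figure D5:**
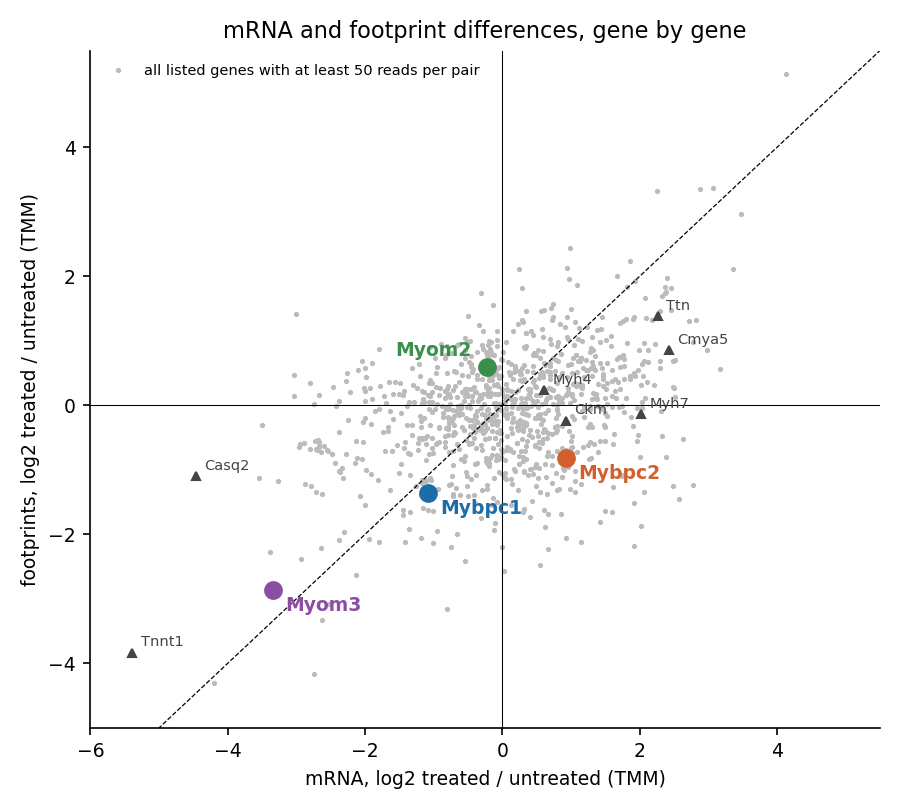
log2 ratio of treated to untreated in mRNA (x axis) and footprints (y axis) for each listed gene with at least 50 reads per pair (grey), with the 4 genes in colour and 7 genes of the fixed lists as triangles; the dashed line marks equal ratios. Mybpc1 and Myom3 lie near the dashed line below 0, Mybpc2 lies in the lower right and Myom2 in the upper left.

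The genes most like each member were the 3 with the smallest distance in the mRNA and footprint log2 ratios, over 995 genes and 4 libraries. For Mybpc1 they were Maged1, at a distance of 0.05, Gm8909 at 0.08 and H2-Bl at 0.11. For Mybpc2 they were Gyg at 0.10, Rpsa at 0.11 and Igf2r at 0.12, and for Myom2 Prkag3 at 0.03, Gatad2b at 0.04 and Chchd2 at 0.10. The genes nearest to Myom3 lay further off, with Hn1 at 0.59, Lgals1 at 0.64 and the collagen gene Col1a2 at 0.85. Few reads leave the place of Myom3 itself uncertain, with intervals of 5.97 to 16.8-fold lower in mRNA and 4.96 to 11.1-fold lower in footprints. Mybpc1 and Myom3 were 2.71 apart and Mybpc2 and Myom2 were 1.83 apart, so no member was among the nearest genes of another.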

How the data were processed

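Mouse tibialis anterior mRNA was sequenced from a stranded total RNA kit and footprints from a small RNA kit with 50 nt reads, per the labels' protocols. The authors deposited 1 table of 1000 genes, holding per the file headers a whole-number read count and a normalized read count for each of the 4 libraries. Each deposited normalized value is the count multiplied by a library constant, within 0.1 in 100% of genes, and was read as CPM, a scale inferred from the values. The table is sorted by reads in untreated mRNA, of which every gene has at least 14. The submitters' processing notes list Trimmomatic, STAR, edgeR and build mm9, with no roles. Counting tool, strand setting and handling of multi-mapped reads: not given in the sources used here.

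Counts were scaled with TMM (edgeR 4.0.16, R 4.3.3). Ratios have exact conditional binomial 95% intervals, and translation efficiency, with 0.5 added to each count, a normal interval on the log scale. Ratios between genes are conditional odds ratios with exact intervals (scipy 1.17.1). The code was tested on simulated data. Reads carried no molecular identifiers, and intervals and floors cover counting error only. Alternatives were 5 other scalings (one with DESeq2 1.42.0 size factors), other minimums of reads, a 2-fold threshold and other added counts. Named genes were the members, up to 4 genes with the most reads from each of 6 lists (1 such gene is not reported here), the 3 nearest genes to each member, and Dmd. The members and lists were chosen with earlier results of these data known. Footprints per codon, although planned, were not computed, since no protein lengths were used here. Of the 5 genes, 4 had a RefSeq promoter entry, and Myom2 did not.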

Additional observations from a re-analysis of the deposited data

How the results depend on the processing

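Every library stood alone in its group, so none could be left out. No paired analysis was possible because each group had 1 library. The count of the 4 genes called higher in mRNA, 1 with TMM, was 0 with listed totals, the upper quartile, the authors' constants and the 2-fold threshold. The same 4 settings took the count called higher in footprints from 1 to 0. The count called lower in mRNA, 2 with TMM, was 3 with listed totals, the upper quartile and the authors' constants, where Myom2 joined. It was 1 with a minimum of 200 reads, which left out Myom3. The count called higher in translation efficiency, 1 with TMM, was 2 with the authors' constants, with listed totals and with totals that omit the 20 most abundant genes, where Myom3 joined Myom2, and 0 with the 2-fold threshold. These shifts follow from the construction of the settings. The count called lower in footprints, 3 with TMM, was 2 at the 2-fold threshold, which Mybpc2 did not reach, and 3 in the other 7 alternatives. The count called lower in translation efficiency was 1 in all 8. The called log2 ratio of no member changed sign under the 5 other scalings, but the uncalled translation efficiency of Mybpc1, −0.29 with TMM, was 0.33 with listed totals, 0.32 with the authors' constants and 0.09 by totals that omit the 20 genes. Adding 0.5 or 5 to each count, or taking the median over genes with at least 50 mRNA reads, moved no value beyond its counting interval. Over all listed genes, those called higher and lower in mRNA numbered 317 and 247 with TMM, 148 and 464 by listed totals, 110 and 543 by the authors' constants, 205 and 369 by upper quartile and 317 and 160 with a minimum of 200 reads. Genes called higher made up 56.2% of mRNA calls with TMM, 24.2% by listed totals, 35.7% by upper quartile, 40.7% by totals that omit the 20 most abundant genes, 16.8% by the authors' constants and 66.5% with a minimum of 200 reads. In translation efficiency this share was 45.0% with TMM and 73.9%, 59.97%, 63.8% and 73.8% in the first 4 of those alternatives. In footprints it was 43.2% with TMM and 23.8% with the authors' constants. In footprints 199 genes were higher and 262 lower, against 114 and 365 with the authors' constants and 81 and 143 at 2-fold. In translation efficiency 259 were higher and 317 lower, against 444 and 157 with listed totals and 444 and 158 with the authors' constants. Depth limits Myom3 most, with 24 reads in untreated mRNA and 28 in treated footprints. The listing also favoured a high translation efficiency ratio for Myom3, under any scaling.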
